A study of Mus musculus with 6 samples.

Results

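The mitochondrial genome of the mouse carries 37 annotated genes, and all 37 were found among the 53379 gene IDs of the count table by their symbols, which start with mt-. They comprised 13 mRNA genes, 2 rRNA genes and 22 tRNA genes, and the 3 RNA classes are described apart. RNA-Seq counts came from 4T1-T, a VM-proficient sub-clone of 4T1 mouse mammary carcinoma cells, where VM is vasculogenic mimicry, the formation of vessel-like channels by tumor cells. All cells came from that 1 clone and were sorted by how much acetylated low-density lipoprotein (acLDL) they had taken up, a property of endothelial cells and macrophages that the study used as a functional marker of VM. The question was which transcripts separate avid from poor uptake.

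Every culture, acLDL-high and acLDL-low alike, was kept overnight without serum in medium with 0.3% BSA and then given Alexa-488 acLDL at 10 µg/mL for 4 h. After 8 washes the cells spent 1 h in complete medium and were sorted. The acLDL-high population was the brightest 25% and the acLDL-low population the dimmest 25%, so the cells between these gates were not sequenced. There were 3 acLDL-high and 3 acLDL-low libraries, numbered by replicate, and each number was taken to hold the 2 populations of 1 culture occasion. P-values for the 2 populations therefore rest on differences within these occasions of 1 clone. In the fits of all genes, each gene's variability was moderated by that of the other genes. Those p-values thus do not measure the spread of 1 gene over its own pairs alone.

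Mitochondrial DNA is a small circle that is read from both strands as long precursor RNAs. Most mRNAs and rRNAs in these precursors are separated by tRNAs, and cleavage at the tRNAs releases the individual RNAs, of which the mRNAs mostly receive short poly(A) tails. The mRNAs encode subunits of respiratory complexes I, III and IV and of the ATP synthase, the rRNAs form the mitochondrial ribosome, and the tRNAs serve its translation. In the annotation used here 28 members lie on the plus strand and 9 on the minus strand, the latter being mt-Nd6 and 8 tRNAs. The libraries were made from poly(A)-selected RNA with a strand-marking kit, and such selection is not aimed at rRNAs and tRNAs. In sorted populations, fewer cells with a transcript and less transcript per cell cannot be told apart.

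The tRNAs that passed the low-count filter are the shortest members whose levels could be compared, and the 5 with most counts are shown first. Sequences are from GENCODE M21 on GRCm38, 5′ to 3′, all on the plus strand of the mitochondrial chromosome. Capitals mark the anticodon, found as the middle of the loop that is closed by the best-paired stem.
mt-Tl1 (leucine, chrM:2676-2750): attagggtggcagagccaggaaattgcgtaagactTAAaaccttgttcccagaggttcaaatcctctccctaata
mt-Ti (isoleucine, chrM:3706-3774): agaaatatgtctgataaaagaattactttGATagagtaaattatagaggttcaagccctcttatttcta
mt-Tm (methionine, chrM:3845-3913): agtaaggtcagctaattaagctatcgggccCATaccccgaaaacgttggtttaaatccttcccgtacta
mt-Tw (tryptophan, chrM:4950-5016): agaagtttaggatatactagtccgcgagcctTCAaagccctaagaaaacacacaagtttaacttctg
mt-Tt (threonine, chrM:15289-15355): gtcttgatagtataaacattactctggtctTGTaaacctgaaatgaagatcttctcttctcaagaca

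A second set of sequences bears on how the counts of some mRNAs can be read. The first 60 bases of mt-Co2, which encodes a catalytic-core subunit of complex IV, are also the start of 2 nuclear pseudogenes, that is, copies of mitochondrial DNA in the nuclear genome. In the lines that follow, capitals mark the bases at which a copy differs from mt-Co2, and both copies are given on their own minus strand.
mt-Co2 (chrM:7013-7072, plus strand): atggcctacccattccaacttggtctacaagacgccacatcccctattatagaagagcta
Gm28661 (chr1:24615506-24615565, minus strand): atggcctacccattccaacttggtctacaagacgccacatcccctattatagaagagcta
Gm13341 (chr2:22587903-22587962, minus strand): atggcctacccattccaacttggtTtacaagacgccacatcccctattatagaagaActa
Gm28661 had 0 differing bases in this stretch and Gm13341 had 2. Over the whole gene, Gm28661 matched mt-Co2 at 100% of 681 aligned bases, and every one of the 635 windows of 50 bases in mt-Co2, the read length, was present in another annotated gene.

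The libraries held between 70263372 and 94216786 counts, so that 3 counts corresponded to 0.0318 to 0.0427 CPM, the usual unit of counts scaled to library size. The fit covered 16232 gene IDs, of which 666 (4.1%) were called between acLDL-high and acLDL-low cells at an adjusted p under 0.05 with edgeR's quasi-likelihood test and the replicate number as a block. Of these, 496 (3.06%) had more counts with high uptake and 170 (1.05%) had fewer. The median log2 fold change of all genes tested was 0.0047 and the median size of a called change was 0.30. Without the block 0 genes were called by edgeR, with 96 at an unadjusted p under 0.05, and 0 by DESeq2, with 108, so every call given here rests on comparison within occasions. Epithelial markers were abundant, with summed levels of 2823 to 3880 CPM in acLDL-high and 2671 to 3741 CPM in acLDL-low libraries, with 1 of 6 tested genes called (Cldn7, higher) and Krt5 at 0 counts in all libraries. The log2 fold changes of all 6 were above 0, 3 had an unadjusted p under 0.05, and DESeq2 with the block called 3 higher, Cldn7, Epcam (0.15, edgeR adjusted p = 0.0614) and Cdh1 (0.14, edgeR adjusted p = 0.0678). Macrophage markers summed to 18.9 to 24.1 CPM and 18.03 to 22.5 CPM, with 1 of 4 tested genes called (Cd14, higher) and Adgre1 at 0 counts in all libraries. Endothelial markers summed to at most 2.47 CPM in any library, with 0 of 3 called by edgeR or by DESeq2 with the block and 0 at an unadjusted p under 0.05. The part of these markers in the results was not tested.

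Mitochondrial mRNAs took several percent of each library, and their share differed far more between occasions than between the sorted populations. The mRNA share was 5.91%, 3.56% and 5.14% of all counts in acLDL-high libraries 1 to 3 and 5.76%, 3.55% and 4.96% in the acLDL-low libraries of the same occasions. Each acLDL-high library lay slightly above its partner, while the groups overlapped almost fully. The mean difference was 0.111 percentage points ± 0.0885 (SD, n = 3 pairs), with p = 0.25 in an exact two-sided paired permutation test, the smallest p that 3 pairs can give.

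The 2 rRNAs together took 0.104%, 0.0697% and 0.0622% of counts in acLDL-high and 0.112%, 0.0722% and 0.0607% in acLDL-low libraries. The rRNA share was lower in acLDL-high cells in the first and the second pair and higher in the third, with an exact paired permutation p of 0.50. The 22 tRNAs took 0.00533%, 0.00405% and 0.00490% of counts in acLDL-high and 0.00474%, 0.00379% and 0.00379% in acLDL-low libraries. Here all 3 acLDL-high libraries lay above their partners, by 0.000651 percentage points ± 0.000428 on average (SD, n = 3 pairs), again with the smallest possible exact permutation p of 0.25. Because every library was poly(A)-selected, these shares do not give the proportions of the 3 classes in the cell.

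**Figure D1:**
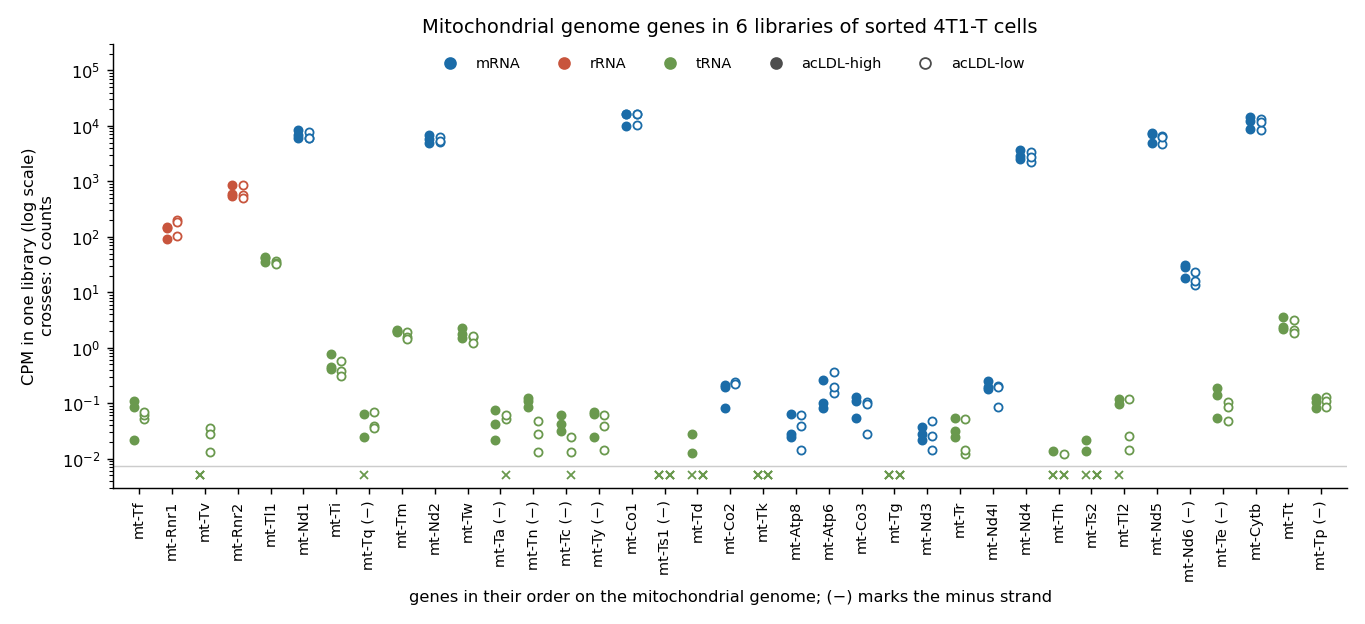
CPM (log axis) of the 37 mitochondrial genes in each of the 6 libraries, in gene order, with filled points for acLDL-high, open points for acLDL-low and crosses at the bottom for libraries with 0 counts. A group of 6 mRNAs stood above 2000 CPM, mt-Nd6 between 13.8 and 31.0 CPM and another 6 mRNAs below 0.4 CPM, while mt-Tl1 stood above all other tRNAs.

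Among the 13 mRNAs, 6 were very abundant, 1 was intermediate and 6 were close to the floor. Ordered by CPM per kilobase of gene, taken over unscaled library totals, a level that can be compared between genes, mt-Cytb came first at 10212, followed by mt-Co1 at 9417.5, mt-Nd1 at 7268, mt-Nd2 at 5575, mt-Nd5 at 3415 and mt-Nd4 at 2117. These encode cytochrome b of complex III (mt-Cytb), the catalytic subunit of complex IV (mt-Co1) and 4 membrane-arm subunits of complex I. mt-Cytb ranged from 7155 to 12884 per kilobase over the libraries and mt-Co1 from 6160 to 11316, so that these neighbours overlapped, although mt-Cytb was the higher in 5 of 6 libraries. The ranges of mt-Co1 and mt-Nd1, of mt-Nd1 and mt-Nd2, and of mt-Nd5 and mt-Nd4 overlapped too, yet within each library the order held in 6 of 6. mt-Nd6, a complex I subunit and the sole mRNA on the minus strand, followed at 42.5 per kilobase with a range of 25.5 to 61.2 that touched no neighbour.

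The other 6 mRNAs had between 14 and 96 counts in all 6 libraries together, against 1385403 for mt-Nd4, the least counted of the abundant group. mt-Nd4l stood at 0.621 CPM per kilobase, mt-Co2 at 0.293, mt-Atp6 at 0.284, mt-Atp8 at 0.187, mt-Co3 at 0.112 and mt-Nd3 at 0.0833. These genes encode subunits of complexes I (mt-Nd4l, mt-Nd3) and IV (mt-Co2, mt-Co3) and of the ATP synthase (mt-Atp6, mt-Atp8), and they form 1 uninterrupted run on the plus strand from mt-Co2 to mt-Nd4l, broken by tRNA genes only. The 5 tRNA genes between mt-Co1 and mt-Nd4l (mt-Ts1, mt-Td, mt-Tk, mt-Tg and mt-Tr) had 18 counts in all libraries.

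Sequence shared with the nuclear genome covered most of this run. All windows of 50 bases in mt-Co2 were also present in another annotated gene, as were 99.9% of those in mt-Co3, 99.5% in mt-Atp6, 98.8% in mt-Nd4l and 98.0% in mt-Nd3. On chromosome 1, 7 pseudogenes between positions 24611535 and 24616197 on the minus strand, a block of 4663 bases, matched the mitochondrial genes at 99.7% to 100% of aligned bases. They are Gm29216 (mt-Co1), Gm28661 (mt-Co2), Gm10925 (mt-Atp6), Gm28437 (mt-Co3), Gm28438 (mt-Nd3), Gm10222 (mt-Nd4l) and Gm28439 (mt-Nd4). mt-Atp8 shared 0 windows with another annotated gene, but it lies between mt-Co2 and mt-Atp6, and the chromosome 1 block holds no annotated gene at the matching place. The low counts of these 6 mRNAs are therefore not read as low expression. How the authors' counting treated reads that match more than 1 place is not given in the sources used here, and the part of shared sequence in the low counts was not tested.

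**Figure D2:**
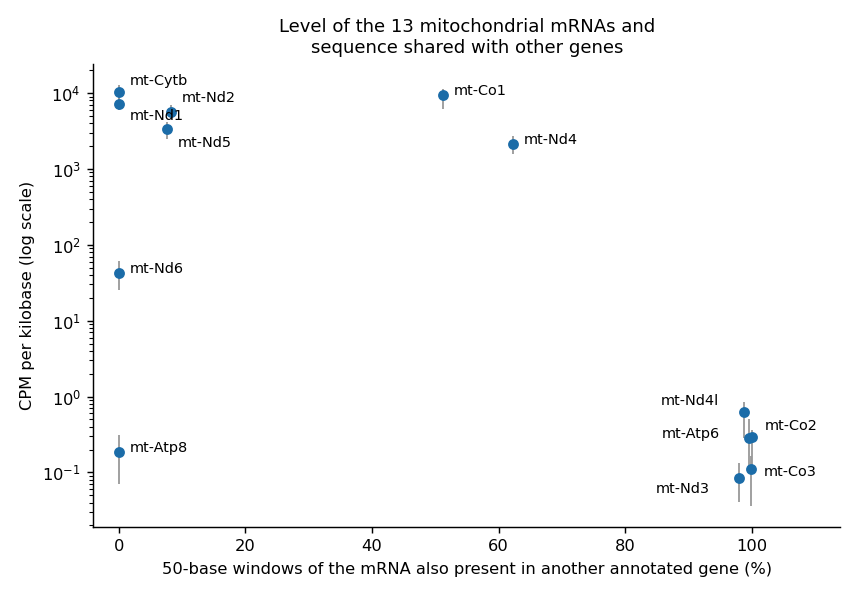
Level of each mitochondrial mRNA (CPM per kilobase, log axis; point, mean of 6 libraries; line, lowest to highest library) against the percentage of its 50-base windows that are present in another annotated gene. The 5 mRNAs with 98.0% or more of their windows shared lay below 1 CPM per kilobase, as did mt-Atp8 with 0%.

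Shared sequence also touched members that were well counted. Windows in other annotated genes made up 62.2% of mt-Nd4, 51.1% of mt-Co1, 8.19% of mt-Nd2, 7.61% of mt-Nd5 and 1.04% of mt-Rnr2. They made up 0% of mt-Cytb, mt-Nd1, mt-Nd6, mt-Rnr1 and the 22 tRNAs. Divided by the length of unshared windows in place of gene length, mt-Co1 stood at 19904 and mt-Nd4 at 5810.0 CPM per kilobase, above mt-Cytb at 10669 and mt-Nd5 at 3798 on the same scale, so the order of the abundant mRNAs depends on the length used. The nuclear copies themselves were counted sparsely. Gm13340 on chromosome 2, which matches mt-Co1 at 97.6% of 1545 bases, had 432 to 973 counts per library, Gm13341 had 186 to 304 and Gm28438 had 155 to 264, whereas Gm28661 had 2 to 4.

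Of the 13 mRNAs, 10 passed the low-count filter and 1 was called, mt-Nd6, which was higher in acLDL-high cells, beside 3.06% of all genes tested that were called higher. The median log2 fold change of the 10 was 0.08, with 7 above and 3 below 0. Transcripts of the 6 abundant mRNAs moved little. mt-Nd5 had 7310.1, 4910.3 and 7238 CPM in acLDL-high libraries 1 to 3 and 6626, 4680.0 and 6408 CPM in their acLDL-low partners. Each acLDL-high library exceeded its partner, though the groups overlapped, and its log2 fold change of 0.13 (SE 0.04) had an edgeR adjusted p of 0.109.

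mt-Nd4 had 3649, 2544 and 2833 CPM in acLDL-high and 3347, 2249 and 2774 CPM in acLDL-low libraries, a log2 fold change of 0.11 (SE 0.04) with an adjusted p of 0.189 (edgeR). mt-Nd1 had 8593, 6105 and 6712 CPM against 7917, 6066 and 6139 CPM, a log2 fold change of 0.09 (SE 0.04, edgeR adjusted p = 0.313). Both were higher in 3 of 3 pairs, by amounts that were small beside the differences between occasions. mt-Nd2 had 6969, 4986 and 5865 CPM against 6338, 5028 and 5379 CPM, a log2 fold change of 0.08 (SE 0.04, edgeR adjusted p = 0.349), and its second pair went the other way.

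The complex III and complex IV mRNAs were closer still to 0. mt-Cytb had 14369, 8805 and 12381 CPM in acLDL-high libraries and 13512, 8539 and 11986 CPM in acLDL-low libraries, a log2 fold change of 0.06 (SE 0.04, edgeR adjusted p = 0.479). mt-Co1 had 16724, 9990.4 and 16583 CPM against 16445, 10449 and 16476 CPM, a log2 fold change of -0.01 (SE 0.04, edgeR adjusted p = 0.934). In both, the second occasion gave the lowest pair of libraries and the groups overlapped over nearly their whole range. The ratio of mt-Co1 to mt-Nd1 within a library, which is free of any scaling between libraries, had log2 differences of -0.09, -0.07 and -0.12 in the 3 pairs, that is, it was lower with high uptake each time, with the smallest possible exact permutation p of 0.25.

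The 3 other mRNAs that passed the filter were near the floor and imprecise. mt-Co2 had 16, 6 and 20 counts in acLDL-high and 18, 20 and 16 in acLDL-low libraries, with a log2 fold change of -0.53 (SE 0.44, edgeR adjusted p = 0.593). mt-Atp6 had 8, 6 and 25 against 12, 30 and 14 counts (log2 fold change -0.68, SE 0.51, edgeR adjusted p = 0.541), and mt-Nd4l had 20, 13 and 18 against 16, 16 and 6 counts (log2 fold change 0.38, SE 0.44, edgeR adjusted p = 0.724). A difference in these genes was not detectable at such counts. Without replicate 2 the log2 fold change of mt-Atp6 was -0.0058 and that of mt-Co2 -0.16, and without replicate 3 they were -1.43 and -0.80, while mt-Nd4l fell to 0.07 without replicate 3. mt-Atp8, mt-Co3 and mt-Nd3 did not pass the filter and had 19, 43 and 14 counts over all libraries.

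**Figure D3:**
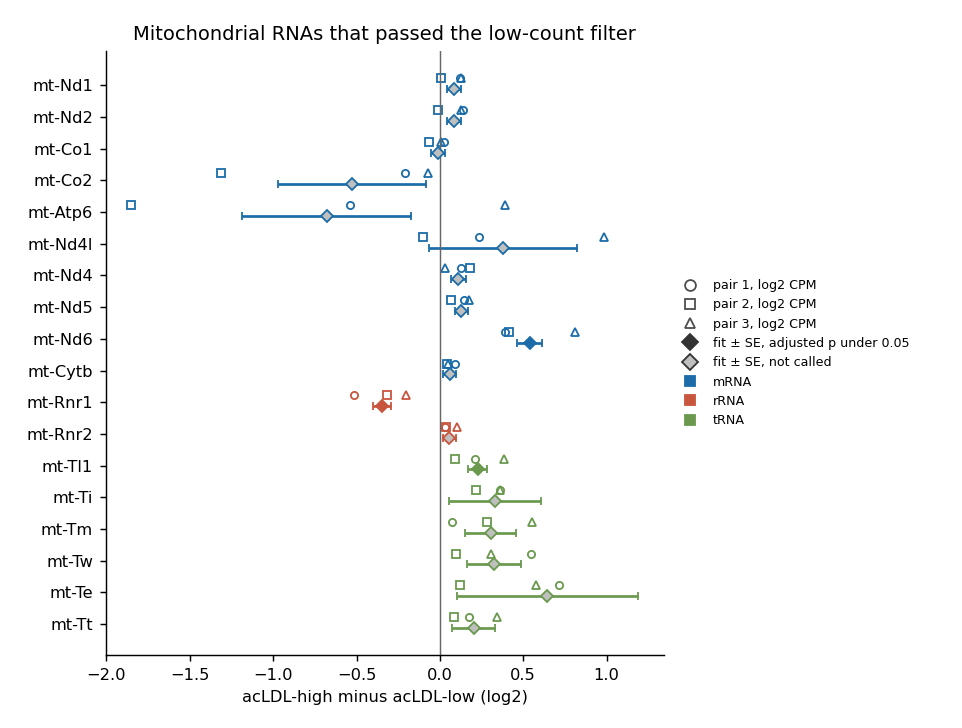
Difference between acLDL-high and acLDL-low cells on the log2 scale for the 18 mitochondrial RNAs that passed the low-count filter, with open symbols for each replicate pair (log2 CPM) and diamonds for the edgeR fit with its SE. Filled diamonds mark mt-Nd6 at 0.54, mt-Rnr1 at -0.35 and mt-Tl1 at 0.23, and the 6 abundant mRNAs lie between -0.01 and 0.13.

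mt-Nd6, at chrM:13552-14070 on the minus strand, was the one mRNA called. It had 2498, 1339 and 2671 counts in acLDL-high libraries 1 to 3 and 1824, 1139 and 1153 counts in their acLDL-low partners, which correspond to 31.0, 18.4 and 28.5 CPM and to 23.6, 13.8 and 16.3 CPM. The acLDL-high library was the higher in 3 of 3 pairs, and the groups overlapped because the second acLDL-high library lay below the first acLDL-low library. The fold change was 1.45, a log2 fold change of 0.54 (SE 0.08) with an edgeR adjusted p of 0.00102, which ranked 79th by p among all genes tested. The log2 difference within a pair was 0.39, 0.42 and 0.81, and without the third pair the fitted value was 0.39 with an edgeR adjusted p of 0.0328.

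The difference in mt-Nd6 held against its neighbours in the same library. On the log2 scale, the ratio of mt-Nd6 to the sum of the 12 plus-strand mRNAs was -10.86, -10.98 and -10.82 in acLDL-high and -11.16, -11.39 and -11.56 in acLDL-low libraries. These groups did not overlap, and the differences within pairs were 0.30, 0.40 and 0.74. Against mt-Nd5, which ends 14 bases inside mt-Nd6 on the opposite strand, the ratio was higher by 0.25, 0.35 and 0.63, and against mt-Cytb by 0.30, 0.37 and 0.76. Each of these ratios had an exact paired permutation p of 0.25, the smallest that 3 pairs can give.

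The 8 minus-strand tRNAs had few counts, and a difference in their sum was not tested. Their summed counts were 50, 29 and 48 in acLDL-high and 30, 32 and 20 in acLDL-low libraries, which relative to library totals gave log2 differences of 0.62, 0.03 and 0.84 within the pairs. Summed over mt-Nd6 and these tRNAs, the ratio of minus-strand to plus-strand counts was higher in acLDL-high cells by 0.31, 0.40 and 0.74, which is almost wholly mt-Nd6. Whether the authors' counting used the strand of the reads is not given in the sources used here, so reads of mt-Nd6 and reads of plus-strand precursor RNA across the same bases cannot be told apart. The mRNA of this gene is known in human cells to carry little or no poly(A), and its level in a poly(A)-selected library therefore need not follow its level in the cell.

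**Figure D4:**
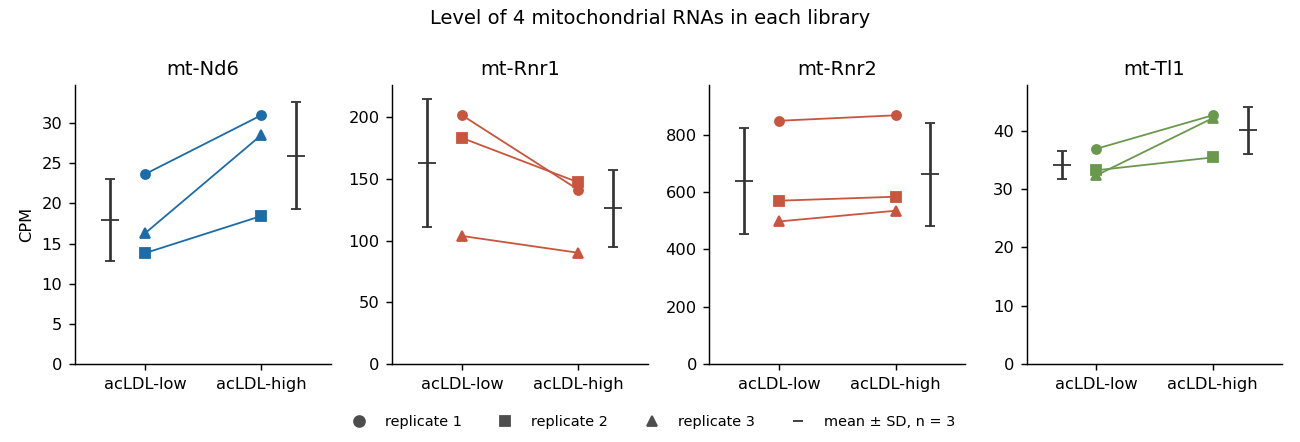
CPM of mt-Nd6, mt-Rnr1, mt-Rnr2 and mt-Tl1 in each library, with lines joining the acLDL-low and acLDL-high libraries of 1 replicate and bars for the mean ± SD of 3 libraries. mt-Nd6 and mt-Tl1 rose and mt-Rnr1 fell from acLDL-low to acLDL-high cells in 3 of 3 pairs, while mt-Rnr2 differed by at most 0.10 on the log2 scale in any pair.

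The 2 rRNAs lie next to each other on the plus strand, separated by mt-Tv alone, yet only 1 of them was called. mt-Rnr1, the 12S rRNA of the small ribosomal subunit at chrM:70-1024, had 11402, 10707 and 8457 counts in acLDL-high and 15573, 15132 and 7365 in acLDL-low libraries. Scaled for library size, these were 141, 147 and 90.2 CPM against 202, 183 and 104 CPM. Each acLDL-high library lay below its partner, and the groups overlapped because the third acLDL-low library lay below the first 2 acLDL-high libraries. The fold change was 0.787, a log2 fold change of -0.35 (SE 0.05) with an edgeR adjusted p of 0.00215, beside 1.05% of all genes tested that were called lower.

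mt-Rnr2, the 16S rRNA of the large subunit at chrM:1094-2675, had 70036, 42440 and 50153 counts in acLDL-high and 65544, 47050 and 35301 in acLDL-low libraries, or 868, 584 and 535 CPM against 849, 570 and 498 CPM. It was slightly higher in acLDL-high cells in 3 of 3 pairs, with a log2 fold change of 0.06 (SE 0.04) and an edgeR adjusted p of 0.524. Within a library, the log2 ratio of mt-Rnr1 to mt-Rnr2 was -2.62, -1.99 and -2.57 in acLDL-high and -2.07, -1.64 and -2.26 in acLDL-low libraries. The acLDL-high library was lower by 0.55, 0.35 and 0.31, larger than the SD of 0.13 between pairs, with the smallest possible exact permutation p of 0.25. Against the 12 plus-strand mRNAs, mt-Rnr1 was lower by 0.60, 0.33 and 0.27, whereas mt-Rnr2 differed by -0.06, 0.02 and 0.03 with an exact permutation p of 1.00. mt-Rnr2 had 310524 counts over all libraries and mt-Rnr1 68636, and they stood at 414 and 152 CPM per kilobase. As the libraries were poly(A)-selected, these levels need not follow those in the cell. How the rRNA reads entered the libraries was not tested.

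Among RNAs outside the mitochondrial genome that were looked up as lacking a poly(A) tail, Rn7sk, Gm26917 and Gm42418 were lower in acLDL-high cells. Of the 10 such RNAs looked up, 4 passed the low-count filter, 3 were called lower in acLDL-high cells (2 by DESeq2 with the block, without Rn7sk), beside 1.05% of all genes tested, and 0 higher, with a median log2 fold change of -0.70 beside 0.0047 for all genes tested. Their summed level was 742, 519 and 399 CPM in acLDL-high and 1431, 685 and 564 CPM in acLDL-low libraries, so each acLDL-high library lay below its partner. Rn7sk, the 7SK RNA that restrains transcription elongation, had 62, 24 and 50 counts against 546, 40 and 162, a log2 fold change of -2.34 (SE 0.31). Gm26917 and Gm42418, non-coding loci known for collecting cytoplasmic rRNA reads, had log2 fold changes of -1.13 (SE 0.09) and -0.28 (SE 0.06), and the largest edgeR adjusted p of the 3 called genes was 0.0171 (Gm42418). Rny1, a Y RNA, had a log2 fold change of -0.28 (SE 0.45, edgeR adjusted p = 0.810), and the other 6 were not tested. The fitted log2 fold changes of mt-Rnr2 and of the 6 tested tRNAs, by contrast, were above 0. How far the carry-over of unselected RNA takes part in the mt-Rnr1 difference was not tested.

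Of the 22 tRNAs, 6 passed the low-count filter and 1, mt-Tl1, was called higher in acLDL-high cells, beside 3.06% of all genes tested. The log2 fold changes of these 6 ran from 0.20 to 0.65 with a median of 0.31, and the other 16 tRNAs were not tested. mt-Tl1 carries the leucine of UUR codons and holds in its gene the binding site of the termination factor mTERF1. It had 3438, 2573 and 3950 counts in acLDL-high and 2847, 2740 and 2293 in acLDL-low libraries, that is, 17841 of the 21252 counts of all tRNAs.

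In CPM, mt-Tl1 stood at 42.6, 35.4 and 42.1 in acLDL-high and 36.9, 33.2 and 32.3 in acLDL-low libraries. The acLDL-high library was the higher in 3 of 3 pairs, and the groups overlapped through the second acLDL-high and the first acLDL-low library. The fold change was 1.17, a log2 fold change of 0.23 (SE 0.06) with an edgeR adjusted p of 0.0372. The call rested on the third pair, without which the log2 fold change was 0.14 with an edgeR adjusted p of 0.378, and it was also lost when libraries were scaled by their totals alone (0.20, edgeR adjusted p = 0.0626). mt-Tl1 lies between mt-Rnr2 and mt-Nd1 with no base between them, and within a library it was higher relative to mt-Nd1 by 0.09, 0.08 and 0.25 and relative to mt-Rnr2 by 0.18, 0.06 and 0.28 on the log2 scale. Counts over a gene of 75 bases do not separate mature tRNA from longer RNAs that run through it.

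The other 5 tRNAs that passed the filter had no call. mt-Tm, the methionine tRNA, stood at 2.02, 1.94 and 2.12 CPM in acLDL-high and 1.92, 1.59 and 1.44 CPM in acLDL-low libraries, groups that did not overlap, with a log2 fold change of 0.30 (SE 0.15, edgeR adjusted p = 0.330). mt-Tw, for tryptophan, stood at 2.24, 1.76 and 1.504 against 1.53, 1.65 and 1.21 CPM (log2 fold change 0.32, SE 0.16, edgeR adjusted p = 0.326), and mt-Tt, for threonine, at 3.53, 2.19 and 2.35 against 3.12, 2.06 and 1.85 CPM (log2 fold change 0.20, SE 0.13, edgeR adjusted p = 0.454). Their log2 fold changes were near that of mt-Tl1, with standard errors at least 2 times as large. mt-Ti, for isoleucine, had 61, 33 and 38 against 45, 32 and 22 counts (log2 fold change 0.33, SE 0.28, edgeR adjusted p = 0.595), and mt-Te, for glutamate and the sole minus-strand tRNA of the 6, had 15, 4 and 13 against 8, 4 and 6 counts (log2 fold change 0.65, SE 0.55, edgeR adjusted p = 0.598).

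Each of the 6 lay directly beside, or within 2 bases of overlap with, a well-counted member. mt-Ti and mt-Tw overlap the ends of mt-Nd1 and mt-Nd2 by 2 bases each, mt-Tm ends where mt-Nd2 starts, mt-Tt starts where mt-Cytb ends and mt-Te abuts mt-Nd6. Some other tRNAs in such a place had few counts. In all libraries together, mt-Tv, between the 2 rRNAs, had 6 counts and mt-Tl2, next to mt-Nd5, had 31. The part of this placement in the counts was not tested. The 16 tRNAs under the filter had at most 51 counts each over the 6 libraries (mt-Tp), and their sums were 45, 48 and 53 counts in acLDL-high and 33, 48 and 23 in acLDL-low libraries. mt-Ts1, mt-Tk and mt-Tg had 0 counts in every library, which allows a level of up to 0.0427 CPM in the shallowest library, counting error only. These genes lie between mt-Co1 and mt-Nd4l, both of which have copies in the chromosome 1 block. Shared sequence was sought in annotated genes only, so their 0 counts are not read as absence of the RNA.

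The 3 occasions differed in most of the well-counted members. The replicate term was called in 11 of the 18 members tested, beside 67.8% of all genes tested, a share near the background and so not a result about the members. It was called in all 6 abundant mRNAs and mt-Nd6, in both rRNAs and in 2 tRNAs, mt-Tl1 and mt-Tt. In the mean of both populations, the 7 well-counted mRNAs were lowest on the second occasion and spanned 0.41 (mt-Nd2) to 0.76 (mt-Nd6) on the log2 scale over the occasions. The rRNAs were lowest on the third occasion instead, with spans of 0.80 for mt-Rnr1 and 0.73 for mt-Rnr2. These spans were wider than each gene's difference between the sorted populations. mt-Tl1 spanned 0.21, about as much as its difference between the populations, and mt-Tm spanned 0.17, less than its log2 fold change of 0.30.

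Few nuclear genes of mitochondrial gene expression and respiration were called. Of 247 genes found for 7 lists, 240 were tested and 0 were called higher, beside 3.06% of all genes tested. The 3 called lower were 1.25%, near the 1.05% of all genes tested that were called lower. In either direction, 4.1% of all genes tested were called. The 19 genes of mitochondrial transcription and DNA maintenance had a median log2 fold change of -0.07, with 2 above 0. Of these 19, 2 were called lower, beside 1.05% of all genes tested. Polg2, the accessory subunit of the mitochondrial DNA polymerase, had 4.79, 4.72 and 4.94 CPM in acLDL-high and 6.98, 6.23 and 5.85 CPM in acLDL-low libraries, without overlap, and fell by 0.40 (SE 0.09, edgeR adjusted p = 0.0281) on the log2 scale. Twnk, the replicative helicase, had 40.4, 39.4 and 33.6 against 45.0, 45.2 and 38.2 CPM and fell by 0.18 (SE 0.05, edgeR adjusted p = 0.0458). The mitochondrial RNA polymerase Polrmt and the factor Tfam, which packages and transcribes mitochondrial DNA, had log2 fold changes of -0.03 (SE 0.05) and -0.02 (SE 0.05), with edgeR adjusted p of 0.825 and 0.883.

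Some nuclear genes whose products act on the called mitochondrial RNAs are named here, which is not a full set. Of these, 0 were called, beside 4.1% of all genes tested. Mterf1a and Mterf1b, which encode the factor that binds within mt-Tl1, had log2 fold changes of -0.19 (SE 0.14) and -0.20 (SE 0.21), and Lars2, which charges that tRNA with leucine, of -0.02 (SE 0.05). Tfb1m and Nsun4, methyltransferases of the 12S rRNA, had log2 fold changes of -0.03 (SE 0.08) and 0.02 (SE 0.07). Grsf1, an RNA-binding protein of mitochondrial granules that is known to bind mt-Nd6 RNA, had 0.01 (SE 0.04), and Lrpprc, which stabilises mitochondrial mRNAs, -0.01 (SE 0.04). Their edgeR adjusted p lay between 0.527 for Mterf1a and 0.952 for Lrpprc.

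The remaining lists held 1 called gene. Of 8 tested regulators of mitochondrial biogenesis, 1 (Myc) was called lower, beside 1.05% of all genes tested. Myc had 346, 432 and 286 CPM against 449, 555 and 337 CPM and fell by 0.32 (SE 0.04, edgeR adjusted p = 0.000767). Among 30 genes of mitochondrial RNA processing and stability, 16 mitochondrial aminoacyl-tRNA synthetases, 13 translation factors, 77 mitochondrial ribosomal proteins and 77 nuclear-encoded subunits of the respiratory chain and ATP synthase, 0 were called by edgeR and 0 by DESeq2 with the block, with 3, 1, 1, 4 and 9 at an unadjusted edgeR p under 0.05. DESeq2 with the block called Myc but not Polg2 or Twnk. The nuclear-encoded subunits, partners of the 13 mitochondrial proteins, had a median log2 fold change of 0.04, with 63 of 77 above 0. For the mitochondrial ribosomal proteins, partners of the 2 rRNAs, the median was 0.01 with 41 of 77 above 0. The median of all genes tested was 0.0047. Their share above 0 is not given here, so these counts are not read as a joint change.

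**Figure D5:**
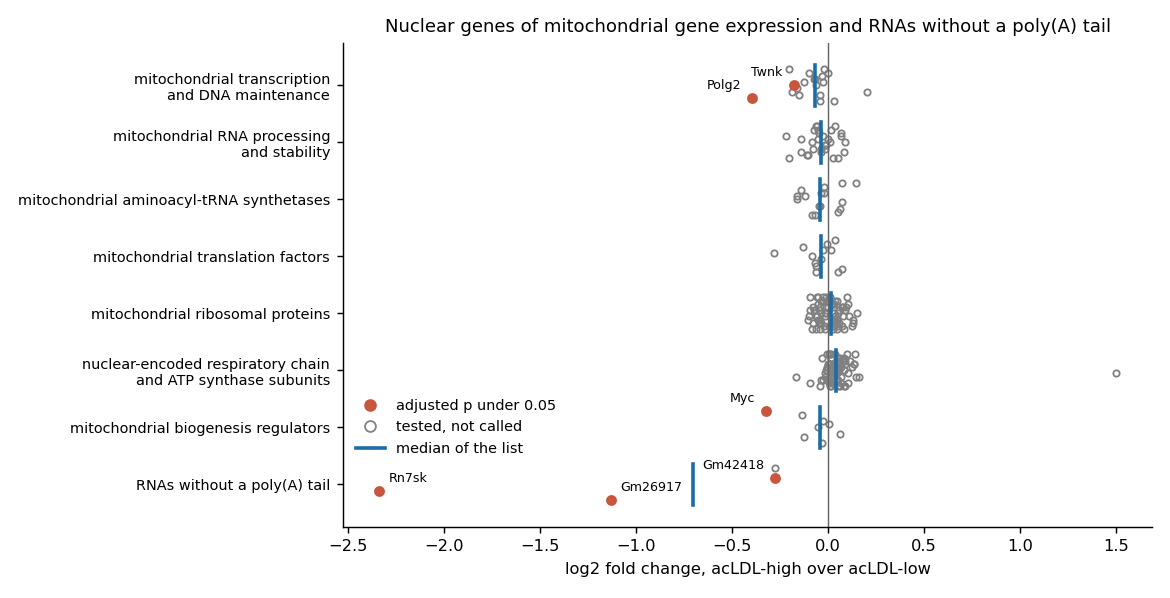
Log2 fold change of acLDL-high over acLDL-low cells for each tested gene of the 7 nuclear lists and of the RNAs without a poly(A) tail, with red points for an adjusted p under 0.05 and a blue bar for the median of each list. Medians of the 7 nuclear lists lie between -0.07 and 0.04 with 3 genes called (Polg2, Twnk and Myc), and that of the RNAs without a poly(A) tail at -0.70. The far point at 1.498 is Cox7a1, with 2 to 22 counts per library and an adjusted p of 0.169.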

How the data were processed

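Poly(A)-selected RNA of 3 acLDL-high and 3 acLDL-low populations was sequenced in 2 x 50 bp reads. The authors aligned the reads to mm10 with STAR (version 2.5.2a), counted them per gene with featureCounts (version 1.4.3-p1) and deposited raw counts per gene ID and library, without normalization. The annotation release, the strand setting and the handling of reads that match several places are not given in the sources used here. The authors' own comparison table, made with DESeq2 (version 1.20.0) for 15973 protein-coding genes, holds mean normalized counts, log2 fold changes with standard errors, test statistics and p-values, and only its gene names were used.

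Members were the gene IDs with symbols starting in mt-. Members and lists were chosen with earlier results of these data known. All members with counts were named (tRNAs under the filter by range), as were nuclear genes that share sequence with members. From the lists, genes with an adjusted p under 0.05 were named, and some of those whose products act on a called mitochondrial RNA. Epithelial, macrophage and endothelial marker genes, the RNAs without a poly(A) tail, Polrmt, Tfam and Cox7a1 are named for context, the last 3 after their values were seen. One member of the lists is not reported here and was left out of their counts.

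Counts were analysed with edgeR (version 4.0.16, R 4.3.3) over all 53379 gene IDs, of which 53274 were found in GENCODE M21. Genes passing filterByExpr (minimum count 10) were scaled by TMM and tested with the quasi-likelihood test and the replicate number as a block, with Benjamini-Hochberg adjustment over 16232 genes. The labels number the replicates, and the paper states that its uptake assays were repeated on separate days. That same-numbered libraries share an occasion was inferred. Their deviations correlated at 0.689, 0.778 and 0.684, those of other pairs at -0.499 to -0.066. No libraries agreed within sampling noise (smallest chi-square per degree of freedom 18.7). Standard errors were obtained by dividing the log2 fold change by the square root of F. They therefore carry variability moderated across all genes tested, not only the spread of 1 gene over its pairs. CPM uses TMM-scaled library sizes (sums over lists, unscaled totals), log2 CPM a prior count of 2, and levels per kilobase unscaled library totals and GENCODE gene lengths. Shares and ratios of classes were compared by exact paired permutation tests. Shared sequence was sought as identical 50-base windows in all other annotated transcripts. Tested on simulated data of 16232 genes with 200 changed by 1 on the log2 scale, the test for acLDL-high against acLDL-low recovered 153 with 5 false calls. That change is larger than the median called change of 0.30, and recovery of smaller changes was not simulated. Floors of 3 counts cover counting error only. Alternatives were other scalings, filters and gene sets, no block, DESeq2 (version 1.42.0), an adjusted p under 0.01 and leaving out each pair.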

Additional observations from a re-analysis of the deposited data

How the results depend on the processing

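mt-Nd6 kept its direction under 12 alternatives, with log2 fold changes of 0.39 to 0.62, and its call in 10. mt-Rnr1 kept both in 9 of 11 (-0.43 to -0.25), and mt-Tl1 kept its direction in 11 (0.14 to 0.29) and its call in 7. The calls of all 3 were lost with no replicate block. With no replicate block 0 mRNAs, 0 rRNAs, 0 tRNAs and 0 nuclear list genes were called, by edgeR and by DESeq2 alike, against 1, 1, 1 and 3 with it. DESeq2 with the replicate block called 1 nuclear list gene. Without a low-count filter 2 mRNAs were called, the added one being mt-Nd5 (log2 fold change 0.13, edgeR adjusted p = 0.00626). With library totals only, or at an adjusted p under 0.01, 0 tRNAs were called, and at that threshold 1 nuclear list gene. Leaving out each pair in turn gave 1 to 2 mRNA calls, 1 rRNA call, 0 to 1 tRNA calls and 1 to 3 nuclear list calls. The 3 without replicate 2 were Polg2 and Myc, lower, and Cox7b, higher, in place of Twnk. Without replicate 3, mt-Tm was at 0.17. Without replicate 2, mt-Nd5 was called (0.16, edgeR adjusted p = 0.0453) and mt-Co1 turned to 0.016 (edgeR adjusted p = 0.914), its range without each pair in turn being -0.032 to 0.016. The log2 ratio of rRNA to mRNA counts differed by -0.07 on average, and by -0.43 without the member with most counts of each class, which leaves mt-Rnr1 as the sole rRNA. The number of all genes called was 666, 1062 without a low-count filter and 152 without replicate 3. Scaling by library totals moved the median log2 fold change of all genes from 0.0047 to -0.02. Beyond these, the cause of each shift was not tested.

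With 3 pairs the exact permutation test cannot go below 0.25, so differences in class shares and ratios cannot pass a threshold of 0.05. Low counts limit the 16 tRNAs and 3 mRNAs under the filter, and mt-Co2, mt-Atp6, mt-Nd4l, mt-Ti and mt-Te, with 50 to 231 counts in all. Levels of the 6 near-floor mRNAs, and of mt-Co1 and mt-Nd4 beside other genes, may depend on how reads that also match nuclear copies were counted, and those of mt-Nd6 on how strand was.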
